A study of Mus musculus with 8 samples.

Results

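Integrin and laminin genes were followed across 3 cell populations of mouse skeletal muscle. Members were the rows of the deposited gene table whose symbols name an integrin alpha chain, an integrin beta chain or a laminin chain. The rule itself used no measured value, but it was chosen with earlier results of these data known. The rule found 37 rows of 36048, which carry 36 symbols, since Itgam stands under 2 identifiers. They comprise 19 rows of integrin alpha chains, 8 of integrin beta chains and 10 of laminin chains. Of the 37 rows, 24 had an FPKM of 1 or more in 2 or more of the 8 libraries and entered the test, 15 of integrins and 9 of laminins. FPKM counts sequenced fragments per transcript length and per library total. The other 13 rows stayed below that filter, and their highest value was 1.66.

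Integrins are receptors of the cell surface made of an alpha and a beta chain, which together decide the ligand, and they tie the matrix outside the cell to the actin cytoskeleton within. Laminins are cross-shaped trimers of an alpha, a beta and a gamma chain and form the sheet on which a basement membrane is built. In muscle, the pair of integrin alpha7 and beta1 and the dystroglycan complex link the fibre to laminin with the alpha2 chain, satellite cells lie beneath the same basement membrane, and endothelial cells rest on a basement membrane of their own with the alpha4 and alpha5 laminin chains.

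The study sequenced RNA of endothelial cells (EC, n = 3), which line blood vessels, of satellite cells (SC, n = 2, numbered 1 and 3), which are the stem cells of muscle, and of single muscle fibres (SMF, n = 3), the contractile cells. EC and SC were obtained by flow sorting from hindlimb muscles, about 100000 cells to a library. A fibre library came from 100 fibres of the extensor digitorum longus, hand-picked after 3 h. The sources used here do not give strain, genotype, age, treatment or sort markers. Muscle and way of isolation thus changed together between SMF and the sorted cells. In comparisons with SMF they cannot be told apart from the population. Whether each replicate stands for its own animals is not said in the labels, and p-values reflect the spread among the libraries alone, possibly technical. The labels' protocols state that 1 sample missed the RNA integrity threshold and do not say which, so its bearing on the values of single libraries and transcripts was not tested.

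The deposited transcript coverage corresponded to an aligned length between 525.5 and 580.8 Mb in SMF and between 277.9 and 367.8 Mb in the sorted cells. Marker genes followed the labels. The 6 endothelial markers summed to 992.5 to 1025 FPKM in EC and to at most 22.8 elsewhere, the 7 satellite cell markers to 709.8 and 712.2 in SC and to at most 27.0 elsewhere, and the 5 fibre markers to 26907 to 29180 in SMF. The SC libraries also held fibre markers at sums of 149.9 and 238.3, against 9.99 to 17.1 in EC. Some markers of other cells of the muscle were present in both sorted populations, and members of a list did not move together. The 8 pericyte and smooth muscle markers summed to 580.1, 226.5 and 698.0 in EC replicates 1 to 3, to 217.5 and 273.2 in SC and to at most 29.9 in SMF. Acta2 (135.4 and 193.7) and Notch3 (58.8 and 68.7) made up most of the SC sum, while Rgs5 (11.7 and 4.81), Pdgfrb (1.18 and 0.905), Myh11, Kcnj8 and Abcc9 were lower in SC than in every EC library. The 8 markers of fibro-adipogenic progenitors, the connective tissue cells of muscle, summed to 173.1 to 240.5 in EC, 260.3 and 268.5 in SC and 23.1 to 46.8 in SMF. Ly6a (94.5 to 116.3) and Cd34 (40.6 to 50.9) made up most of the EC sum, and Dpt and Col3a1 most of the SC sum. The 8 leukocyte markers summed to 62.1, 14.5 and 86.5 in EC, to 31.1 and 37.9 in SC and to at most 3.73 in SMF. Lyz2 (43.7, 7.94 and 62.3) made up most of the EC sums. Cd14 (3.69, 4.20 and 4.37 in EC) was not lowest in EC replicate 2, and Adgre1 was at 0 in EC replicates 2 and 3. The other leukocyte markers were lowest in EC replicate 2 among the EC libraries. EC replicate 2 therefore stood apart from the other EC libraries, and several of the results that move with it are given with and without it.

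Alternative 3′ ends of Itgb1 and Itga6 carry part of the findings, so the coding bases of these ends are shown. The cytoplasmic tail of integrin beta1 ends in either of 2 ways: the common beta1A form uses the last exon, and the beta1D form, known from striated muscle, uses an extra exon of 81 bases before it. The tail of integrin alpha6 differs likewise: the alpha6A form uses an extra exon of 130 bases, and the alpha6B form skips it. The sequences were read from GRCm39 with the GENCODE M39 annotation, a later build than the mm10 of the deposited tables, from the start of the exon to the stop codon, which is in capitals. The beta1 exons lie on chromosome 8 (plus strand), at 129458504 to 129460618 for the A form and 129453464 to 129453544 for the D form. The alpha6 exons lie on chromosome 2 (plus strand), at 71683878 to 71684007 for the A form and 71686198 to 71689757 for the B form.
Itgb1 beta1A tail, 66 bases: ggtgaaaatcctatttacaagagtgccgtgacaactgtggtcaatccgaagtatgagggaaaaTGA
Itgb1 beta1D tail, 75 bases: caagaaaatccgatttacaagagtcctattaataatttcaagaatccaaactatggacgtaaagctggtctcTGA
Itga6 alpha6A tail, 108 bases: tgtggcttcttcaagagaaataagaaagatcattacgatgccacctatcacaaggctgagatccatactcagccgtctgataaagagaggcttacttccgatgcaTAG
Itga6 alpha6B tail, 162 bases: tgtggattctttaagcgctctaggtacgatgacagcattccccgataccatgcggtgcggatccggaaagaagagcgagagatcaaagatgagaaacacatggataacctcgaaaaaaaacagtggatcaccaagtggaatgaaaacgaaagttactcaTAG

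EC and SC differed in their leading alpha chains of both families. Itga1 and Itga6, which code for a collagen receptor chain and a laminin receptor chain, led in EC together with Lama4. Itga7, the laminin receptor chain of muscle, and Lama2, the laminin chain of the muscle basement membrane, led in SC. In fibres the same 2 alpha chains had the highest means of their families, at 4.60 for Itga7 and 1.25 for Lama2, and nearly all members had low values. Itgb6 and Itga4 were the 2 members with their highest mean in SMF, against 14 in EC and 8 in SC among the 24 tested.

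The test was limma on log2(FPKM + 1) over all 8 libraries, two-sided, and 16700 genes were tested, with a gene called when its Benjamini-Hochberg adjusted p was under 0.05. All adjusted p-values given are from this fit unless an alternative is named. Differences are of mean log2(FPKM + 1), a scale on which changes of low genes appear smaller. Between SC and EC, 17 of 24 members were called, 10 higher in EC and 7 higher in SC, while 37.7% of all genes tested were called, 16.4% higher in EC and 21.2% higher in SC. Libraries of the 2 groups did not overlap for 20 members, against 54.7% of all genes. Between SC and SMF, 17 members were called, 15 higher in SC and 2 higher in SMF, where the background was 65.1% in all, 56.5% higher in SC and 8.57% higher in SMF. Between EC and SMF, 19 were called, 17 higher in EC and 2 higher in SMF, where the background was 66.3% in all, 55.5% and 10.8%. Libraries did not overlap for 22 members between SC and SMF (77.8% of all genes) and for 18 between EC and SMF (70.8%). These comparisons share their libraries, so the counts are not independent of each other. A member that reached an FPKM of 1 in 1 population alone entered the test through that population. Its call is therefore not independent of the filter. In a fit with no filter, 17 of the 17 member calls were kept for SC minus EC. For SC minus SMF 16 of 17 were kept, and for EC minus SMF 18 of 19.

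The median difference of the 24 members was -0.55 for SC minus EC, where all genes had 0.11. It was 0.95 for SC minus SMF, where all genes had 0.93, and 1.97 for EC minus SMF, where all genes had 0.85. In whole populations of cells, fewer cells with a transcript and less of it per cell cannot be told apart. Comparisons with SMF depend on the scaling: median-of-ratios scaling lowered the median of all genes to 0.21 for SC minus SMF and 0.20 for EC minus SMF. Under it the members split into 10 higher in SC and 4 higher in SMF, and into 15 higher in EC and 5 higher in SMF. Over all genes the share of calls that were higher in SC went from 86.8% to 55.1%, and the share higher in EC from 83.7% to 56.6%. In SC minus EC the share higher in SC was 56.3% and ranged from 39.0% to 67.4% over the scalings.

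**Figure D1:**
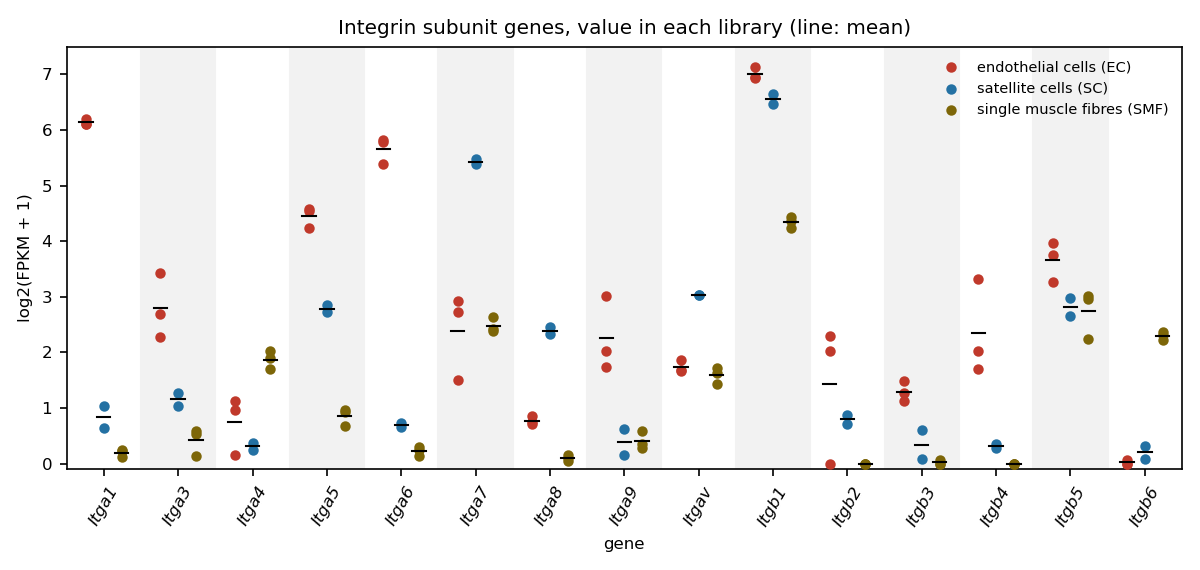
Integrin genes that were tested, with log2(FPKM + 1) on the vertical axis, 1 point for each library and a line at the mean of each population. Itga1 and Itga6 are high in the 3 EC libraries alone, Itga7 is highest in the 2 SC libraries, and Itgb6 and Itga4 are highest in the 3 SMF libraries.

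Among the alpha chains tested, 5 were higher in EC than in SC, 3 were higher in SC and 1 was not called. Itga1 (ENSMUSG00000042284, GRCm38 chromosome 13, 114958079 to 115101964) codes for the alpha1 chain, which with beta1 binds collagens and laminin. It stood at 68.0, 72.4 and 68.1 FPKM in EC, 1.04 and 0.553 in SC and 0.0855, 0.188 and 0.171 in SMF. The lowest EC library thus lay far above every other library. The difference of SC minus EC was -5.31 (SE 0.16, adjusted p = 7.54e-07) and that of EC minus SMF was 5.94 (SE 0.14, adjusted p = 9.95e-08). The small difference of SC minus SMF (0.63, adjusted p = 0.00834) lost its call without SC replicate 1 (0.44, adjusted p = 0.0567). Pelo, a gene on the same strand within Itga1, stood at 10.7 to 15.3 in EC.

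Itga6 (ENSMUSG00000027111, chromosome 2, 71786886 to 71858427), whose product pairs with beta1 or beta4 as a laminin receptor, stood at 55.3, 40.7 and 54.2 in EC. It was at 0.584 and 0.671 in SC and at 0.187, 0.233 and 0.105 in SMF, so groups did not overlap. The difference of SC minus EC was -4.96 (SE 0.17, adjusted p = 1.16e-06), and that of EC minus SMF was 5.43 (SE 0.15, adjusted p = 1.38e-07). SC minus SMF was called at 0.47 (adjusted p = 0.0412), but with the replicate number as a block the adjusted p was 0.112. Without any single SC or SMF library that call was also lost, at adjusted p-values from 0.068 to 0.144.

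Itga5 (chromosome 15, 103344286 to 103366791), the chain of the fibronectin receptor, stood at 17.8, 22.9 and 22.3 in EC, 6.23 and 5.59 in SC and 0.604, 0.894 and 0.9496 in SMF. The 3 populations did not overlap, and each step was called (SC minus EC -1.66, SE 0.17, adjusted p = 0.000206). SC minus SMF was 1.93 (SE 0.17, adjusted p = 4.22e-05). Itga3, another laminin receptor chain, stood at 3.84, 9.72 and 5.43 in EC, with EC replicate 2 the highest, and at 1.06 and 1.40 in SC. Its difference of SC minus EC was -1.64 (SE 0.32, adjusted p = 0.00564). Itga9, whose product binds tenascin and VCAM1, stood at 2.33, 7.09 and 3.07 in EC, again highest in EC replicate 2, and at 0.112 and 0.549 in SC (SC minus EC -1.87, SE 0.37, adjusted p = 0.00554). Without EC replicate 2, SC minus EC was -1.32 for Itga3 (adjusted p = 0.00464) and -1.49 for Itga9 (adjusted p = 0.00285). SMF values were at most 0.494 for Itga3 and 0.507 for Itga9, and neither differed between SC and SMF past the threshold (0.73, adjusted p = 0.0802, and -0.01, adjusted p = 0.985).

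Itga7 (ENSMUSG00000025348, chromosome 10, 128933421 to 128958286) was the leading alpha chain of SC. It stood at 41.1 and 43.4 in SC, 5.60, 1.84 and 6.63 in EC and 4.33, 5.22 and 4.26 in SMF. The SC libraries lay above all others, and EC and SMF overlapped. The difference was 3.05 for SC minus EC (SE 0.39, adjusted p = 0.00063), 2.95 for SC minus SMF (SE 0.39, adjusted p = 0.000318) and -0.10 for EC minus SMF (adjusted p = 0.822). Under median-of-ratios scaling EC minus SMF became -1.27 (adjusted p = 0.00697), higher in SMF. The low value in EC replicate 2 moved with the pericyte markers of that library. Without that library SC minus EC was 2.61 (adjusted p = 5.81e-05). The part of pericytes in the EC value was not tested.

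Itga8, a receptor chain for nephronectin, stood at 4.47 and 4.01 in SC, 0.632, 0.676 and 0.809 in EC and 0.108, 0.0366 and 0.0778 in SMF. All 3 populations were separate, and SC minus EC was 1.62 (SE 0.15, adjusted p = 0.000125). Only the SC libraries reached an FPKM of 1, so Itga8 passed the filter through the group where it is high. Its listed transcripts gave only 11.4 read equivalents in SC replicate 1 and 2.17 in SC replicate 3, so transcripts that carry most of the gene value are not among those analysed here. Itgav, the chain of the vitronectin receptors that also release active TGF-beta, stood at 7.21 and 7.22 in SC, 2.19, 2.22 and 2.63 in EC and 2.10, 2.30 and 1.69 in SMF. SC lay above both other populations (SC minus EC 1.30, SE 0.15, adjusted p = 0.00039), which overlapped each other. SC minus SMF was 1.45 (SE 0.15, adjusted p = 9.28e-05), but under median-of-ratios scaling it was 0.20 and not called (adjusted p = 0.351). EC minus SMF was 0.15 (adjusted p = 0.353) and turned to -0.85 (adjusted p = 0.00163) under median-of-ratios scaling.

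Itga4 (ENSMUSG00000027009, chromosome 2, 79255426 to 79333114), whose product pairs with beta1 or beta7 and binds VCAM1 and fibronectin, was the only tested alpha chain with its highest mean in fibres. It stood at 2.24, 3.05 and 2.74 in SMF, 0.961, 0.114 and 1.17 in EC and 0.192 and 0.297 in SC. The SMF values did not overlap the others and rest on 336, 450 and 372 read equivalents. SC minus SMF was -1.56 (SE 0.29, adjusted p = 0.00202) and EC minus SMF -1.12 (SE 0.26, adjusted p = 0.00567). Leukocyte markers summed to at most 3.73 in SMF, and Itgb7 was listed at 0, 0.0929 and 0 there. Of the 8 markers, Adgre1, Tyrobp and Cd52 were at 0 in every SMF library, Lyz2 stood at 0.269, 3.16 and 1.59, and the other 4 at up to 0.703. The part of leukocytes in the SMF value was not tested. In EC, the low Itga4 value of replicate 2 moved with its low leukocyte marker sum, though not with Cd14. SC minus EC was -0.43 (adjusted p = 0.285) and became -0.73 (adjusted p = 0.0147) without that library.

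Among the beta chains, Itgb1 (ENSMUSG00000025809, chromosome 8, 128685654 to 128733579) was the most abundant in every library. Its product is the partner of most alpha chains named above. It stood at 121.1, 123.1 and 139.7 in EC, 87.8 and 99.1 in SC and 17.9, 20.6 and 19.5 in SMF. The 3 populations did not overlap. EC minus SMF was 2.67 (SE 0.14, adjusted p = 2.16e-06) and SC minus SMF 2.22 (SE 0.16, adjusted p = 1.78e-05). SC minus EC was -0.45 (SE 0.16) and missed the threshold at an adjusted p of 0.0619. It passed under median-of-ratios scaling at -0.63 (adjusted p = 0.0181).

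Itgb4, the partner of alpha6 in hemidesmosomes, stood at 2.27, 8.99 and 3.05 in EC and at 0.286 and 0.223 in SC, and every SMF library listed it at 0. EC replicate 2 was the highest, and the SC minus EC difference was -2.02 (SE 0.42, adjusted p = 0.00741), or -1.54 (adjusted p = 0.00066) without it. The listed Itgb4 transcripts gave only 5.96, 21.4 and 24.1 read equivalents in EC replicates 1 to 3. As with Itga8, transcripts that carry most of the gene value are not among those analysed here. Itgb3, the partner of alphav and of the platelet chain alphaIIb, stood at 1.42, 1.80 and 1.19 in EC, 0.0541 and 0.515 in SC and at most 0.0484 in SMF. SC minus EC was -0.96 (SE 0.22, adjusted p = 0.0106), and without SC replicate 1 it was -0.70 (adjusted p = 0.0874). The 5 platelet markers summed to 2.70 to 6.55 in EC and Itga2b, the alphaIIb gene, did not exceed 0.6004.

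Itgb5, another partner of alphav, stood at 12.5, 8.60 and 14.7 in EC, 5.29 and 6.92 in SC and 3.75, 6.78 and 7.08 in SMF. SC and SMF overlapped (SC minus SMF 0.08, adjusted p = 0.833), and under median-of-ratios scaling that difference was -1.29 (adjusted p = 0.00533). EC minus SMF was called at 0.92 (SE 0.27, adjusted p = 0.0164), lost the call without EC replicate 3 (0.77, adjusted p = 0.0567) and turned to -0.33 (adjusted p = 0.271) under median-of-ratios scaling. The difference of SC minus EC was -0.84 (adjusted p = 0.0601) and was called without EC replicate 2 (-1.04, adjusted p = 0.031) or without SMF replicate 1 (adjusted p = 0.0355).

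Itgb2, the beta chain of leukocyte integrins, stood at 3.90, 0 and 3.09 in EC, 0.639 and 0.840 in SC and at 0 in every SMF library. Its 0 in EC replicate 2 moved with the low leukocyte marker sum of that library, though not with Cd14. The SC minus EC difference was -0.65 (adjusted p = 0.453), and without EC replicate 2 it was -1.37 (adjusted p = 0.000945). EC against SMF was called at an adjusted p of 0.0464, and the call was lost without any single SC or SMF library, at adjusted p-values from 0.0623 to 0.0995. The leukocyte alpha chains Itgal, Itgam, Itgax and Itgae were below the filter. Itgal stood at 0.667, 0.128 and 0.734 in EC and Itgam at 0.863, 0 and 1.66, so both were lowest in EC replicate 2, and all 4 were listed at 0 in every SMF library.

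Itgb6 (ENSMUSG00000026971, chromosome 2, 60598292 to 60722603) codes for a partner of alphav that is known from epithelia, where it releases active TGF-beta. It stood at 3.69, 4.17 and 3.95 in SMF, 0.0459, 0 and 0 in EC and 0.0661 and 0.242 in SC. The SMF values were close to each other and lay above all others, resting on 291, 323 and 282 read equivalents. SC minus SMF was -2.10 (SE 0.16, adjusted p = 1.92e-05) and EC minus SMF -2.28 (SE 0.14, adjusted p = 4.04e-06), and both were called in the same direction under every alternative that tested the gene. Only SMF libraries reached an FPKM of 1, so Itgb6 passed the filter through the group where it is high. Of 4 epithelial markers, 2 were analysed here, Krt5 and Krt8, and both were at 0 in every SMF library. The part of epithelial cells in the Itgb6 value was not tested. Among the alpha chains, its partner Itgav was at 1.69 to 2.30 in the same libraries.

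Most of the Itgb6 signal of fibres lay on a transcript that begins at the innermost of 3 start regions. That transcript (ENSMUST00000059888) stood at 4.74, 5.70 and 4.99 FPKM in SMF, which was 88.2%, 91.5% and 75.6% of the listed Itgb6 transcripts. A transcript from the outer start (ENSMUST00000112517) stood at 0.635, 0.186 and 0.602. A short transcript of 730 bases that begins between these starts (ENSMUST00000142696) stood at 0, 0.346 and 1.01, which was 15.3% of the listed transcripts in SMF replicate 3 and rests on 7.74 read equivalents there. The windows of 250 bases before the inner and outer starts are shown because the values differ between these starts. They come from RefSeq on GRCm38.p6, minus strand, with matches to any of 4 motifs in capitals. The motifs were CAGCTG and CACCTG, which are E-boxes, TATAA and GGGCGG, searched on both strands and chosen after the values were seen.
Itgb6 inner start, chr2:60673694-60673943: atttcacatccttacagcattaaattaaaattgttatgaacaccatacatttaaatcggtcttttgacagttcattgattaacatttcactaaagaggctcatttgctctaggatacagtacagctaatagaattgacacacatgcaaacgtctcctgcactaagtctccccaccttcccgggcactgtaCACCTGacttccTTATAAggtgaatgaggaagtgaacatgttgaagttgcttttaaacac
Itgb6 outer start, chr2:60722604-60722853: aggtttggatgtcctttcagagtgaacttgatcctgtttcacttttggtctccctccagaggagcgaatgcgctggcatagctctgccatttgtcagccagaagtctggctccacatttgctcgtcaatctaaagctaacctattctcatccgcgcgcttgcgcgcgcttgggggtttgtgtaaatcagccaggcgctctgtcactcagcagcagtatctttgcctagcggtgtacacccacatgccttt

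The inner window holds CACCTG, beginning 60 bases before the start, and TATAA on both strands in an overlapping match. The outer window holds none of the 4 motifs. Of 32851 windows of this length before RefSeq starts, 13.0% hold CAGCTG, 17.2% CACCTG, 22.8% TATAA and 32.7% GGGCGG. Among 26 windows found for 23 member symbols, 6, 8, 4 and 9 hold them. A match describes the letters only and shows no binding.

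Listed transcripts also differed in the tails shown above. They were compared without a test, because 25348 of the transcript numbers up to 115219 were absent from the table analysed. For Itgb1, the long transcript with the beta1A tail (ENSMUST00000090006) stood at 128.1, 124.0 and 147.7 FPKM in EC, 84.9 and 98.4 in SC and 14.8, 19.8 and 19.5 in SMF. The short transcript that holds the beta1D exon (ENSMUST00000149116) stood at 15.7, 6.80 and 0.312 in SMF, at most 0.779 in EC and at most 0.180 in SC. It made up 40.5%, 20.9% and 1.14% of the listed Itgb1 transcripts in SMF replicates 1 to 3. SMF replicates 1 and 2 thus lay above every EC and SC library, while SMF replicate 3 lay within the EC range. Of its 711 bases, only the exon of 81 bases sets its tail apart, and how reads of shared exons were divided was not examined. The long transcript holds 15 exons that the short one does not hold in the same form. The shares are therefore no clean measure of the 2 tails.

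Another Itgb1 transcript (ENSMUST00000135281), a short one of 651 bases, stood at 52.9 and 44.3 in SC and at 7.43, 45.2 and 9.84 in EC, so EC replicate 2 was at the SC level. It stood at 5.89 to 8.30 in SMF. For Itga6, the transcript with the alpha6A exon (ENSMUST00000028522) stood at 101.3, 65.3 and 91.0 in EC. The alpha6B transcript (ENSMUST00000112101) stood at 4.79, 0.0249 and 2.78 in the same libraries. The A form therefore led in every EC library. These transcripts differ in 3 other exons as well.

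**Figure D2:**
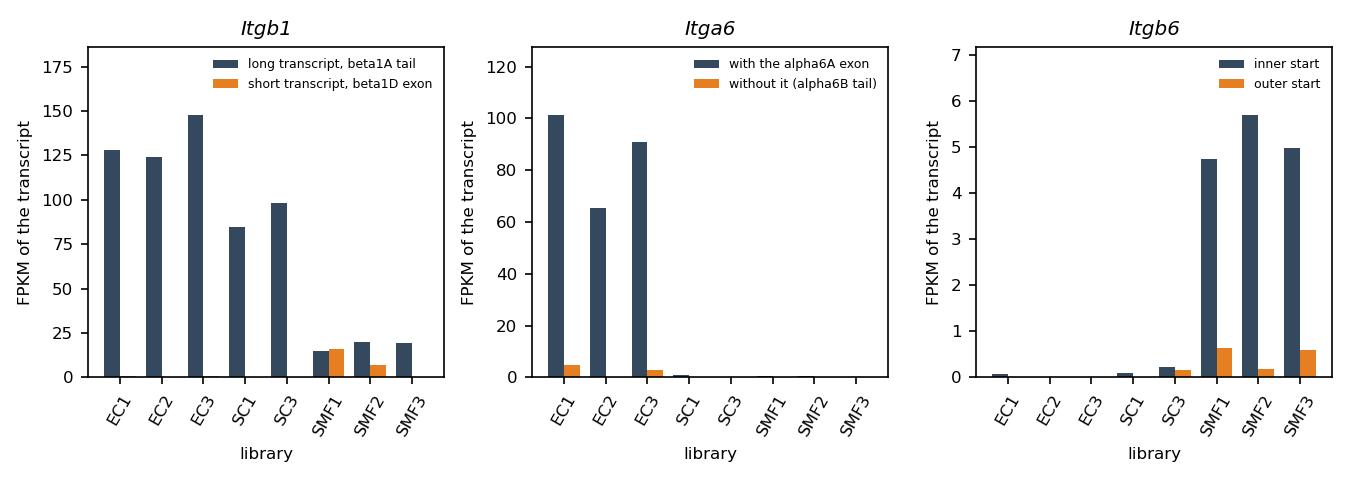
FPKM of selected transcripts of Itgb1, Itga6 and Itgb6 in each library, with 2 bars a library and a separate vertical scale in each panel. The short Itgb1 transcript with the beta1D exon reaches 15.7 and 6.80 in SMF replicates 1 and 2, the alpha6A transcript of Itga6 leads in EC, and the inner-start transcript of Itgb6 is seen in SMF.

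Of the 4 laminin alpha chains tested, Lama4 and Lama5 were higher in EC than in SC, Lama2 was higher in SC and Lama3 was not called. Lama4 (ENSMUSG00000019846, chromosome 10, 38965515 to 39110188), the alpha chain of laminins in vessel walls, stood at 28.6, 18.2 and 32.9 in EC, 0.563 and 0.401 in SC and 0, 0.189 and 0.352 in SMF. Every EC library lay above the others, with replicate 2 the lowest. The difference of SC minus EC was -4.18 (SE 0.26, adjusted p = 1.49e-05) and EC minus SMF 4.52 (SE 0.23, adjusted p = 1.67e-06). Without EC replicate 2, the former was -4.42. Lama5, the other alpha chain of endothelial basement membranes, stood at 12.3, 13.1 and 13.6 in EC, 2.96 and 3.79 in SC and 0.608, 0.786 and 0.755 in SMF. The 3 populations did not overlap, and SC minus EC was -1.68 (SE 0.15, adjusted p = 8.85e-05).

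Lama2 (ENSMUSG00000019899, chromosome 10, 26981285 to 27617191), the alpha chain of the laminin that surrounds muscle fibres, stood at 41.0 and 42.6 in SC. It was at 1.36, 0.112 and 0.860 in EC and 1.24, 1.58 and 0.927 in SMF, so fibres themselves were close to EC. SC exceeded EC by 4.66 (SE 0.30, adjusted p = 1.97e-05), SC minus SMF 4.26 (SE 0.30, adjusted p = 1.66e-05) and EC minus SMF -0.40 (adjusted p = 0.228). Without EC replicate 2, SC minus EC was 4.35. EC minus SMF was called under each of 3 other scalings, at -1.16, -0.73 and -0.80. The sum of fibro-adipogenic markers, given above, was higher in the SC libraries than in every EC and SMF library. Of the 8 markers, only Dpt (103.4 and 95.5 in SC) and Col3a1 were, while Ly6a (1.65 and 1.09) and Cd34 (11.2 and 7.51) were lower in SC than in every EC library. Their part in the Lama2 value was not tested.

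Within SC, the long Lama2 transcript (ENSMUST00000092639) stood at 53.4 and 68.7. A shorter one (ENSMUST00000189575) stood at 24.6 in SC replicate 1 and 1.29 in SC replicate 3, and was at 0 in every EC and SMF library. The gene value of the 2 SC libraries was thus alike, while the division among listed transcripts was not. Lama3, the alpha chain of epithelial laminins, stood at 6.86, 8.08 and 6.87 in EC, 7.11 and 5.54 in SC and at most 0.147 in SMF. EC and SC overlapped (-0.18, adjusted p = 0.405), and both were above SMF (SC minus SMF 2.71, SE 0.15, adjusted p = 6.42e-06). Lamb3, its partner in epithelial laminins, did not exceed 0.515 in any library.

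**Figure D3:**
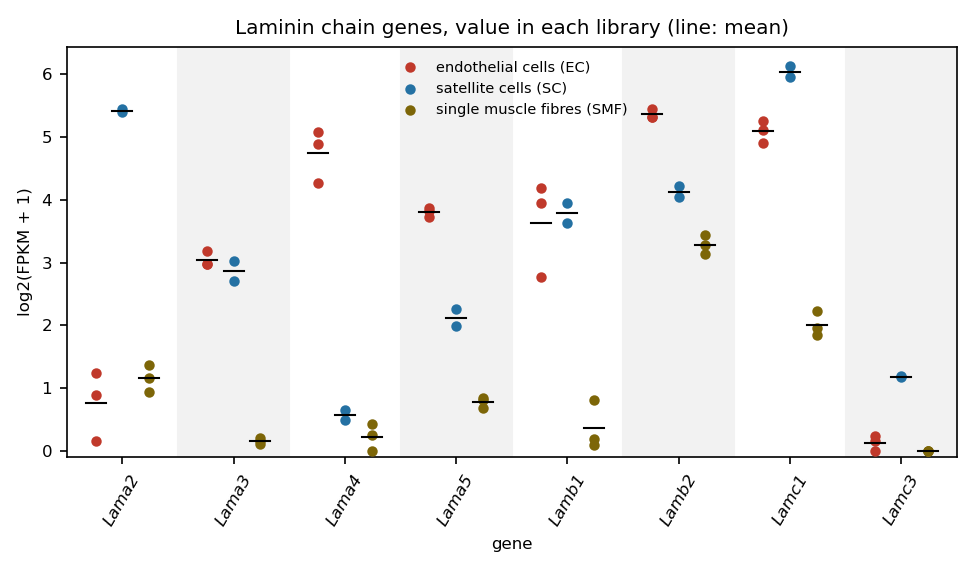
Tested laminin genes described in the text, with log2(FPKM + 1) on the vertical axis, 1 point for each library and a line at the mean of each population. Lama4 is high in EC and Lama2 in SC, while Lamc1 and Lamb2 are present in all 3 populations and lowest in SMF.

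Of the beta chains, Lamb1 and Lamb2 were tested. Lamb2 (ENSMUSG00000052911, chromosome 9, 108479847 to 108490530), the beta chain of vessels and of neuromuscular synapses, stood at 39.0, 42.8 and 39.1 in EC, 17.5 and 15.5 in SC and 7.80, 8.71 and 9.89 in SMF. The order was EC, SC, SMF with no overlap. Between SC and EC the difference was -1.24 (SE 0.15, adjusted p = 0.000577). SC minus SMF was 0.84 (SE 0.15, adjusted p = 0.00182) and turned to -0.63 (adjusted p = 0.0243) under median-of-ratios scaling.

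Lamb1 (chromosome 12, 31265146 to 31329644), the widely used beta chain, stood at 14.4, 5.78 and 17.2 in EC, 11.4 and 14.4 in SC and 0.0619, 0.147 and 0.756 in SMF. EC and SC overlapped, with EC replicate 2 lowest, and SC minus EC was 0.15 (SE 0.43, adjusted p = 0.812), or -0.28 (adjusted p = 0.474) without that library. Both lay above SMF (SC minus SMF 3.42, SE 0.43, adjusted p = 0.000247). In EC, the low Lamb1 of replicate 2 moved with its low pericyte sum, and the part of pericytes was not tested.

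Lamc1 (ENSMUSG00000026478, chromosome 1, 153218922 to 153332786) codes for the gamma chain of most laminins. It stood at 60.8 and 68.8 in SC, 33.7, 28.8 and 37.1 in EC and 2.59, 3.69 and 2.88 in SMF. No groups overlapped, and SC minus EC was 0.95 (SE 0.18, adjusted p = 0.00489). After scaling that left out each group's 50 most abundant genes it was 0.59 (adjusted p = 0.0708). SC minus SMF was 4.03 (SE 0.18, adjusted p = 2.74e-06). Lamc3 stood at 1.29 and 1.25 in SC, 0.181, 0 and 0.112 in EC and 0 in every SMF library (SC minus EC 1.05, SE 0.18, adjusted p = 0.00312). It reached an FPKM of 1 in SC alone and so passed the filter through the group where it is high.

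**Figure D4:**
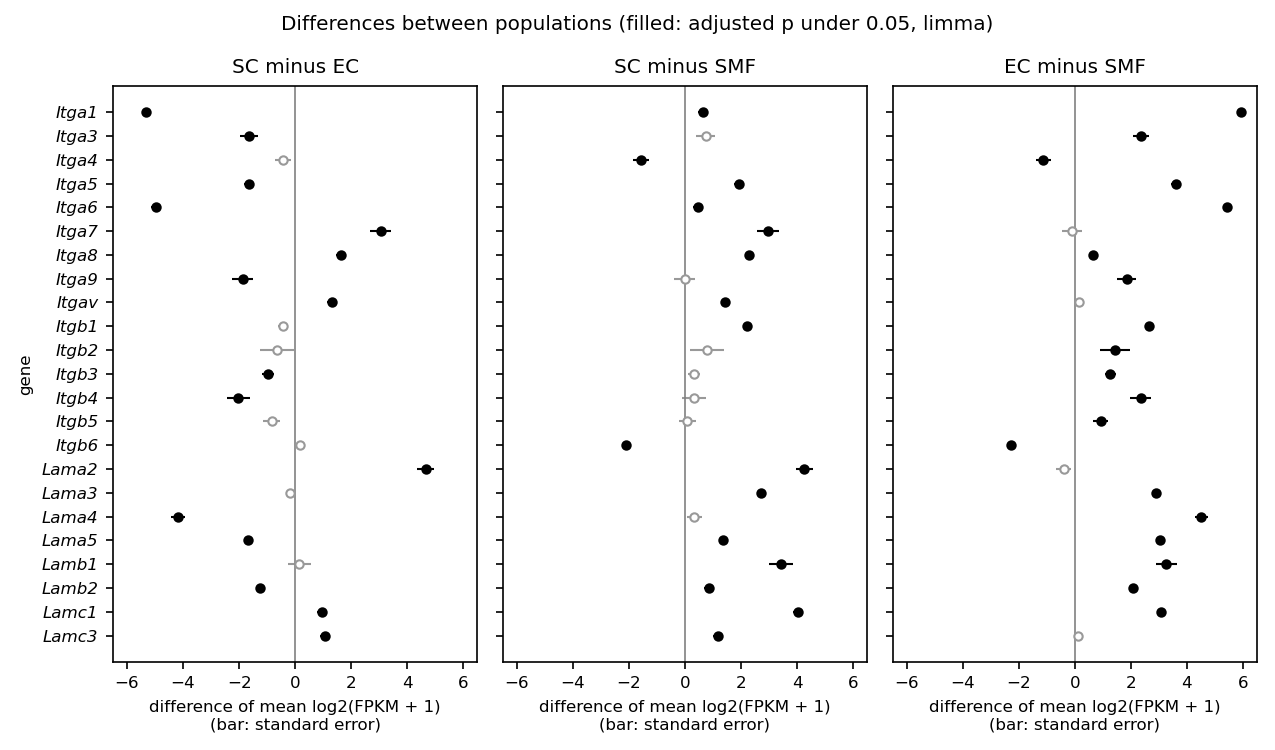
Differences of mean log2(FPKM + 1) for the tested members described in the text in the 3 comparisons, with bars of 1 standard error and filled points for an adjusted p under 0.05. Differences between SC and EC lie on both sides of 0, while the called members lie above 0 in the comparisons with SMF, except Itgb6 and Itga4.

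The composition of each family followed these values. FPKM is per length, so levels of different genes were summed. Integrin alpha genes summed to 158.5 to 169.7 FPKM in EC, 62.7 and 66.6 in SC and 10.8 to 12.9 in SMF. In EC, Itga1 gave 40.1% to 45.6% of that sum and Itga6 25.7% to 34.7%. In SC, Itga7 gave 65.2% and 65.5%. In SMF, Itga7 gave 37.0% to 40.6% and Itga4 20.7% to 23.8%. Although the Itga7 level of fibres was close to that of EC, its share of the alpha sum was thus far higher than the 1.16% to 3.91% in EC.

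Integrin beta genes summed to 141.6 to 161.9 in EC, 94.9 and 108.9 in SC and 25.3 to 31.7 in SMF. Itgb1 gave 85.5% to 86.4% of the sum in EC, 91.0% and 92.5% in SC and 63.7% to 70.4% in SMF. Itgb6 took 12.9% to 14.5% in SMF. Laminin alpha genes summed to 39.5 to 54.2 in EC, 51.6 and 52.3 in SC and 1.97 to 2.64 in SMF, so EC and SC overlapped in the sum and differed in the chain. Lama4 gave 46.0% to 60.7% in EC and Lama2 gave 79.4% and 81.4% in SC and 42.5% to 63.3% in SMF. Gamma genes summed to 29.1 to 37.3 in EC, 63.2 and 71.6 in SC and 2.67 to 3.95 in SMF.

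**Figure D5:**
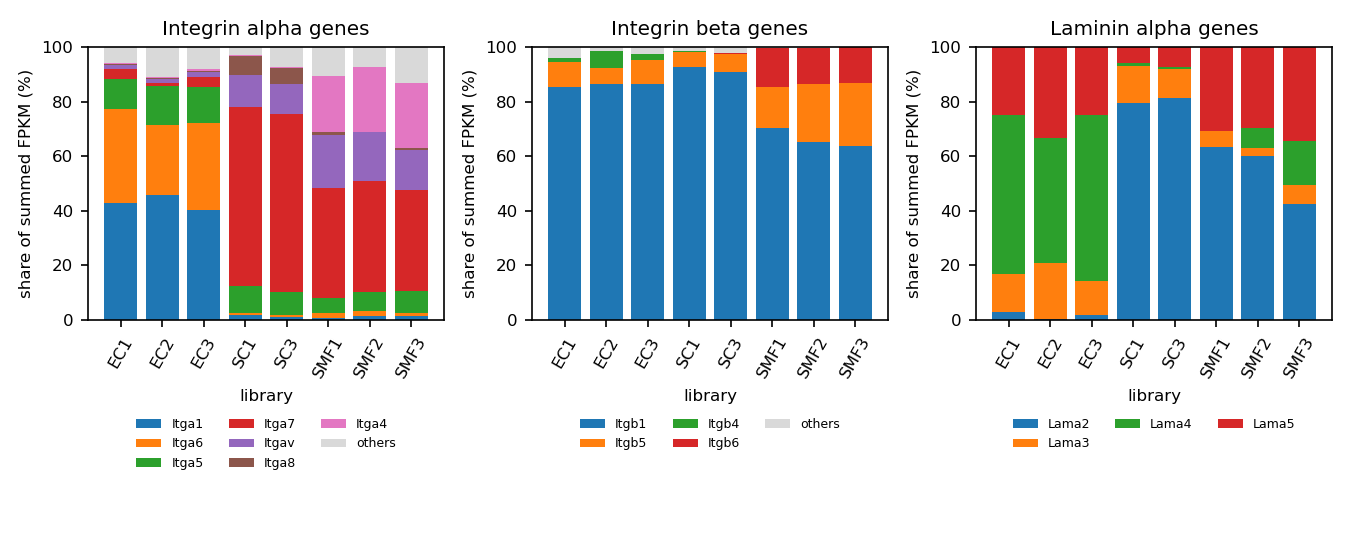
Share in percent of the summed FPKM of integrin alpha, integrin beta and laminin alpha genes in each library, stacked by gene. Itga1 and Itga6 fill most of the alpha bars of EC and Itga7 most of those of SC, while Itgb1 is the largest part of every beta bar.

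Among the 13 rows that were not tested, Itgb8 came closest to the filter in SC, at 0.743 and 1.06, and was at most 0.185 elsewhere. Itga10, Itga11 and Itga2, chains of collagen receptors, did not exceed 0.523 in any library. Itgad was listed in SMF only, at 0.123, 0.347 and 0.149. Cox6a2, a gene on the opposite strand that overlaps it, stood at 418.1, 403.9 and 411.2 there, and whether counting used strand is not stated in the sources used here. The second identifier of Itgam overlaps the first, and reads of the 2 cannot be told apart.

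Genes that work with integrins and laminins were counted in 4 lists. For comparison, 21.2% of all genes tested were higher in SC than in EC and 16.4% higher in EC. Against SMF, 56.5% of all genes were higher and 8.57% lower in SC, and 55.5% were higher and 10.8% lower in EC. List counts near these shares say nothing particular to the list. Of the 18 partners of laminin in the basement membrane and its surroundings, 14 were tested. Between SC and EC, 3 were higher in SC (Col6a1, Col6a2 and Ntn4), 5 were higher in EC (Nid1, Agrn, Col4a1, Col4a2 and Egflam) and 6 were not called, with a median of -0.66. Under upper-quartile scaling 3 were higher in each, and without the 50 most abundant genes of each population 2 and 7 were. SC exceeded SMF for 12 and EC exceeded SMF for 13, with medians of 3.23 and 3.29. Egflam, whose product binds dystroglycan, was the exception in SC, at 0.0786 and 0.157 against 1.37, 1.59 and 1.78 in SMF.

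Col4a1, a chain of the collagen network of basement membranes, stood at 269.0, 134 and 280.3 in EC, 88.3 and 96.9 in SC and 0.889, 1.72 and 1.56 in SMF. The populations did not overlap, with EC replicate 2 at the low end of EC. SC minus EC was -1.22 (SE 0.34, adjusted p = 0.024), and the call was lost without EC replicate 1, EC replicate 3 or either SC library. Its partner Col4a2 stood at 221.8, 112.4 and 251.2 in EC and 37.6 and 51.8 in SC (SC minus EC -2.04, SE 0.36, adjusted p = 0.00338). Nid1, which links laminin to this network, stood at 52.2, 40.2 and 54.9 in EC and 18.7 and 14.6 in SC, and SC minus EC (-1.50, SE 0.38, adjusted p = 0.0166) lost its call without either SC library. Sparc, a collagen-binding protein, stood at 294.5, 165.3 and 318.9 in EC and 197.2 and 209.0 in SC. These overlapped (-0.30, adjusted p = 0.461), and without EC replicate 2 the difference was called at -0.59. Without EC replicate 2, 8 members of this list were higher in EC than in SC.

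Of 20 other integrin ligands, 17 were tested. Between SC and EC, 3 were higher in SC, 4 higher in EC and 10 not called, with a median of 0.48. The shares over all genes were 21.2% higher in SC and 16.4% higher in EC. SC exceeded SMF for 13, with 4 not called, and EC exceeded SMF for 12, with 5 not called, where 56.5% and 55.5% of all genes did. Icam2, a ligand of leukocyte integrins on endothelium, stood at 35.9, 38.1 and 36.3 in EC and 1.28 and 0.199 in SC (SC minus EC -4.51, SE 0.26, adjusted p = 9.97e-06). Icam1, a ligand of the same class, stood at 68.8, 114.8 and 77.4 in EC and 6.45 and 5.01 in SC (-3.68, SE 0.27, adjusted p = 3.87e-05). EC and SC did not overlap for either gene. Col3a1, a fibrillar collagen chain, stood at 107.9 and 113.2 in SC and 21.1, 2.43 and 25.6 in EC (3.14, SE 0.85, adjusted p = 0.0221), and the call was lost without either SC library and with the replicate block. For Col3a1, EC minus SMF was not called (1.52, adjusted p = 0.112) but was called without EC replicate 2 (2.46, adjusted p = 0.00175). Thbs1 was not called between SC and EC (-0.56, adjusted p = 0.332). Fbn1 was not called either (1.19, adjusted p = 0.136), but it was called with the replicate block (1.47, adjusted p = 0.049), in the fit of only these 2 groups (adjusted p = 0.0257) and without SMF replicate 1 (adjusted p = 0.00978). Without either SC library, 1 ligand was called higher in SC.

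Of 27 genes for regulators of integrins and for adaptors at their adhesions, 25 were tested. Between SC and EC, 21.2% of all genes were higher in SC and 16.4% higher in EC. Of this list, 5 were higher in SC (Tln2, Zyx, Nrap, Itgb1bp2 and Cib2), 11 higher in EC and 9 not called, with a median of -0.36. Upper-quartile scaling gave 5 and 7. Against SMF, 56.5% of all genes were higher and 8.57% lower in SC, and 55.5% were higher and 10.8% lower in EC. In this list, 16 were higher and 5 lower in SC, with a median of 1.14, and 20 were higher and 3 lower in EC, with a median of 1.67. Under median-of-ratios scaling these splits became 10 and 8, and 12 and 4. Lims2, an adaptor bound to integrin-linked kinase, stood at 67.1, 50.4 and 64.9 in EC, 0 and 0.414 in SC and 0, 0.310 and 0.160 in SMF (SC minus EC -5.69, SE 0.22, adjusted p = 1.69e-06). Its EC values were far above all others.

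Nrap, an actin-anchoring protein of myofibril ends, stood at 127.2, 99.5 and 95.5 in SMF, while SC values were 0.383 and 1.04 and every EC library listed it at 0. In SC, Nrap and the sum of fibre markers were both higher in replicate 3, which rests on 2 libraries alone. SC minus EC of Nrap was called at 0.75 (adjusted p = 0.024). That call was lost under median-of-ratios scaling (adjusted p = 0.0772), with the replicate block (adjusted p = 0.0726) and in deposited TPM (adjusted p = 0.123). Itgb1bp2 stood at 1.01 and 2.14 in SC and 13.9 to 19.9 in SMF. Cib2 stood at 1.57 and 1.26 in SC, in the opposite order to the fibre markers, and at 23.5 to 27.8 in SMF. The part of fibres in the SC values of these genes was not tested. Fermt2, a kindlin that activates integrins, stood at 65.2, 51.7 and 73.7 in EC, 51.6 and 58.4 in SC and 24.7, 26.8 and 21.9 in SMF. EC and SC overlapped, and both were called above SMF, with the sign turned under median-of-ratios scaling (-0.41 for SC minus SMF and -0.0443 for EC minus SMF). Tns2, a tensin of focal adhesions, stood at 43.9, 42.2 and 45.5 in EC, 24.9 and 23.4 in SC and 1.07, 1.16 and 0.626 in SMF, with no overlap. Rap1b, a small GTPase upstream of talin, stood at 61.5, 55.2 and 77.8 in EC, 51.4 and 41.2 in SC and 5.52, 4.12 and 3.61 in SMF.

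Of 12 genes for other laminin receptors, for proteins associated with integrins and for the sugar chain of dystroglycan, 10 were tested. Between SC and EC, 21.2% of all genes were higher in SC and 16.4% higher in EC. Of this list, 3 were higher in SC, Dag1 among them, 3 higher in EC (Bcam, Cd151 and Cd47) and 4 not called, with a median of 0.22. Upper-quartile scaling gave 4 and 2. Against SMF, 56.5% of all genes were higher in SC and 55.5% in EC. In this list, 8 were higher in SC, with a median of 1.03, and 5 in EC, with a median of 0.45. Median-of-ratios scaling turned these into 3 higher and 3 lower in SC, and 3 higher and 5 lower in EC. It left 1 gene higher in SC than in EC, as did leaving out SC replicate 1.

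Dag1, which codes for dystroglycan, the laminin receptor outside the integrin family, stood at 210.2 and 179.6 in SC, 21.1, 24.4 and 20.3 in EC and 20.4, 12.9 and 20.8 in SMF. Both SC libraries were above all others, while EC and SMF overlapped. The excess of SC over EC was 3.09 (SE 0.23, adjusted p = 4.18e-05) and SC minus SMF 3.39 (SE 0.23, adjusted p = 1.41e-05). Like Itga7 and Lama2, it was thus called higher in SC than in each other population. EC minus SMF was 0.29 (adjusted p = 0.244) and -1.05 (adjusted p = 0.00645) under median-of-ratios scaling. Bcam, a receptor for the laminin alpha5 chain, stood at 60.6, 72.6 and 66.6 in EC, 8.43 and 10.6 in SC and 0.595, 0.749 and 0.221 in SMF. Its order of EC, SC and SMF was that of Lama5 (SC minus EC -2.69, SE 0.20, adjusted p = 3.87e-05). Cd151, a tetraspanin partner of laminin-binding integrins, stood at 46.8, 37.4 and 40.0 in EC, 20.5 and 22.3 in SC and 11.8, 10.2 and 10.9 in SMF. Cd47, an integrin-associated protein, stood at 29.0, 32.2 and 21.2 in EC, 13.4 and 8.08 in SC and 0.776, 0.692 and 0.948 in SMF.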

How the data were processed

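Libraries were prepared from 10 ng of RNA with a stranded, random-primed kit and read as pairs of 50 bp, per the labels' protocols. The submitters' processing notes name FastQC, HISAT2, StringTie, Trimmomatic and bedtools, and build mm10, with no versions in the sources used here. The authors deposited FPKM per gene, FPKM and read coverage per transcript, and TPM per locus, per the file headers.

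The fit used limma 3.58.1 (R 4.3.3) on log2(FPKM + 1), with its mean-variance trend, 1 mean per group and no block. Genes were kept where 2 or more libraries had an FPKM of 1 or more. It was tested on simulated data. Members and lists were chosen with earlier results of these data known. Besides all members, the 3 most abundant called genes of each list and comparison were named. Others singled out, and the transcripts shown, were chosen after their values were seen. Read equivalents are the deposited coverage times transcript length divided by the 50 bp read length, summed over listed transcripts. Depth is the sum of such bases implied by coverage and FPKM. RefSeq coordinates on GRCm38 were found for all 36 symbols. Alternatives were 3 scalings, a pseudocount of 0.1, other filters, fits of 2 groups, no trend, the replicate block, a test against a log2 difference of 1, each library left out, and deposited TPM. Some genes are counted but not reported by name here.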

Additional observations from a re-analysis of the deposited data

How the results depend on the processing

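Counts of called members between SC and EC (17) kept within 1.5 times under all alternatives except the test against a log2 difference of 1, which called 8 members between SC and EC (3 higher in SC, 5 higher in EC), 10 between SC and SMF (9 higher in SC, 1 higher in SMF) and 1 member higher in SMF than in EC. With an FPKM of at least 5, 15 members were tested, and 4 were higher in SC than in EC. Between EC and SMF 12 differed, and 0 were higher in SMF in either comparison, because Itgb6 and Itga4 were not tested. Of all 7872 genes under this filter, 2274 were higher in SC than in EC. Between EC and SMF, 5014 were higher in EC and 1297 higher in SMF, and 1084 were higher in SMF than in SC. Median-of-ratios scaling gave 4 and 5 members higher in SMF than in SC and EC, against 3737 and 4116 of all 16700 genes. Leaving out SC replicate 1 or 3 gave 4 members higher in SC than in EC, the lowest of a range of 4 to 7 over single libraries left out, since 3 members, Itga8 and Lamc3 among them, were no longer tested. Directions turned under median-of-ratios scaling for SC minus SMF of Itgb5 (-1.29), Lamb2 (-0.63), Icam1 (-0.13), Fermt2 (-0.41) and Cd151 (-0.59), and for EC minus SMF of Itgb5 (-0.33), Itgav (-0.85), Fermt2 (-0.0443) and Dag1 (-1.05). Scaling without the 50 most abundant genes turned SC minus SMF of Itgb5 (-0.82), Lamb2 (-0.13) and Cd151 (-0.0822). The cause was not tested. Library factors of median-of-ratios scaling were 0.521 to 0.547 in SMF and 1.28 to 1.73 elsewhere. Same-numbered libraries did not deviate together from their group means (correlations from -0.0581 to 0.0906). This check cannot decide whether the numbers pair libraries, because deviations of the 2 SC libraries mirror each other. The labels do not say whether they do. With the replicate block, 17 members were called between SC and EC, 16 between SC and SMF (14 higher in SC) and 19 between EC and SMF. Transcript values have no alternatives. Depth limits low members: for a transcript 1 kb long, a single fragment amounts to as much as 0.360 FPKM.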
